A study of Mus musculus with 6 samples.

Results

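Potassium channels let potassium ions leave the cell and so hold or restore a negative membrane potential. In the β-cell, closure of the ATP-sensitive (KATP) channel by glucose metabolism depolarizes the membrane, opens voltage-gated calcium channels and starts insulin exocytosis, while voltage-gated, calcium-activated and two-pore-domain potassium channels limit the depolarization and shape the calcium oscillations. The pore-forming subunits fall into families with different gates: inward rectifiers (*Kcnj*), voltage-gated channels (*Kcna* to *Kcnd*, *Kcnq*, *Kcnh*), calcium-activated channels (*Kcnma1*, *Kcnn*) and two-pore-domain leak channels (*Kcnk*), to which accessory subunits and the sulfonylurea receptors *Abcc8* and *Abcc9* are added.

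The genes described here are the protein-coding genes of the deposited table whose symbol starts with *Kcn*, together with *Abcc8* and *Abcc9*, selected on raw counts that summed to at least 60 over the 6 libraries. The rule kept 60 of 96 such genes, out of 40914 genes with counts and 47729 genes listed, and it used the sum over both genotypes and not their difference. Just inside the limit lay *Kcna6*, a Kv1 pore subunit with 9, 1 and 9 reads in WT and 24, 16 and 7 in *Akita*, and *Kcnd2*, a Kv4 pore subunit with 7, 11 and 7 reads in WT and 9, 17 and 17 in *Akita*. Just outside it lay *Kcng4*, with 0, 1 and 2 reads in WT and 5, 9 and 34 in *Akita*, and *Kcnj1*, with 2 in each WT library and 33, 4 and 8 in *Akita*. Of the 36 genes below the limit 5 had no read in any library (*Kcnv1*, *Kcnk15*, *Kcne1*, *Kcna10* and *Kcns2*), so that they were not detectable at this depth.

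RNA came from hand-picked whole islets of mice at postnatal days 19 to 21, either wild type (WT) or *Akita*, which are heterozygous for an *Ins2* allele with a cysteine-to-tyrosine substitution that makes proinsulin misfold. Per the methods of the study the *Akita* mice were males on a C57BL/6J background. For the WT mice used for RNA, the sources read here name neither sex nor background. All islets recovered overnight in medium with 11.1 mmol/l glucose, so that the libraries of both genotypes reflect cells after culture at one glucose concentration. Each genotype had 3 libraries, each a pool of the islets of 3 mice, named WT1, WT2, WT3 and AK4, AK5, AK6 after the columns of the table, and p-values measure the spread between pools. Totals were 22069554 to 27043169 counts per library.

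Whole islets hold more than β-cells, and the markers of other cells are given here because they differed between libraries. The summed level of 14 β-cell markers was 224418 to 248343 CPM (counts scaled to the library size) in WT and 133853 to 158373 in *Akita*. Most of this sum was *Ins2*, *Ins1* and *Iapp*, at 131220, 57080 and 30456 CPM in WT1, so that it chiefly follows these genes. Of the 14, 12 had lower estimates and 4 (*Mafa*, *Nkx6-1*, *Ins2* and *G6pc2*) passed the test as lower. The sum of 12 α-cell markers was 27808 to 42571 CPM in WT and 39949 to 61831 in *Akita*, most of it *Gcg* (26429 CPM in WT1). All 12 had higher estimates, 7 at an unadjusted p under 0.05 and 0 past the adjusted threshold of limma-voom. Sums over neural and Schwann cell markers were 101 to 115 CPM in WT and 172 to 175 in *Akita* (11 of 12 tested, 10 with higher estimates, *Th* passing), and *Sox10* was at 0 in WT2. Acinar genes varied between pools of both genotypes, from 362 to 6972 CPM in WT and from 318 to 7490 in *Akita*, being high in WT1, WT3 and AK4, and the acinar factors *Rbpjl* and *Ptf1a* were at 0 in WT2. The sum of 6 PP- and ε-cell markers was 4572 to 5451 CPM in WT and 6032 to 8970 in *Akita*, that of 4 blood genes was 5.08 to 8.12 and 9.72 to 24.6, and that of 6 nuclear RNA and stress-response genes taken as signs of RNA quality was 906 to 992 and 658 to 822. These 3 sums did not overlap between genotypes, and at an unadjusted p under 0.05 there were 3, 4 and 1 of their genes, with 0 called by limma-voom. Mural cell markers were at 84.1 to 123 CPM in WT and 101 to 126 in *Akita*. Ductal markers summed to 576 to 1310 CPM in WT and 488 to 603 in *Akita*, with 8 of 8 estimates lower. Macrophage markers summed to 154 to 264 in WT and 84.3 to 203 in *Akita*, with 8 of 9 lower. Mesenchymal markers summed to 37.3 to 546 and 142 to 263, with 7 of 8 higher. Endothelial markers summed to 202 to 299 and 196 to 289, with 6 of 10 lower. In these lists 0 genes were called by limma-voom. In bulk RNA alone, fewer cells of a type and less RNA per cell cannot be told apart. By cell counts at this age, the authors found a similar ratio of β- to α-cells in both genotypes. The density of β-cells within islets was also similar. From this they conclude that their RNA data chiefly represent β-cells, without an effect of islet make-up. Those counts cover β- and α-cells only. The part of any cell type in the differences below was not tested here.

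Across the 60 genes, the mean level in WT islets spanned from *Abcc8*, the sulfonylurea receptor SUR1, at 96.0 ± 4.28 CPM per kilobase of merged exons (SD, n = 3), to the Kv7 subunit *Kcnq3* at 0.040 ± 0.030. After *Abcc8* came *Kcnk16*, the alkaline-activated two-pore channel TALK-1, at 53.1 ± 6.70, and *Kcnmb2*, a β-subunit of the BK channel, at 42.0 ± 4.72 CPM per kilobase. The WT ranges of these last genes overlapped, while that of *Abcc8* lay above both. Next in order were *Kcnk1* (TWIK-1) at 22.4 ± 1.96, *Kcnh2* (ERG1) at 19.4 ± 0.405 and *Kcnj11* (Kir6.2) at 14.7 ± 1.23 CPM per kilobase, whose WT ranges did not overlap each other. *Kcnip1*, a calcium-binding Kv4 partner, was at 12.0 ± 1.52, *Kcnh6* (ERG2) at 10.8 ± 0.376 and *Kcnab3*, a Kvβ subunit, at 7.64 ± 1.78 CPM per kilobase. The range of *Kcnip1* overlapped those of its neighbours *Kcnj11* and *Kcnh6*. Of the 59 pairs of neighbours in this order, 50 had overlapping WT ranges, so that the order is resolved mainly at its top.

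**Figure D1:**
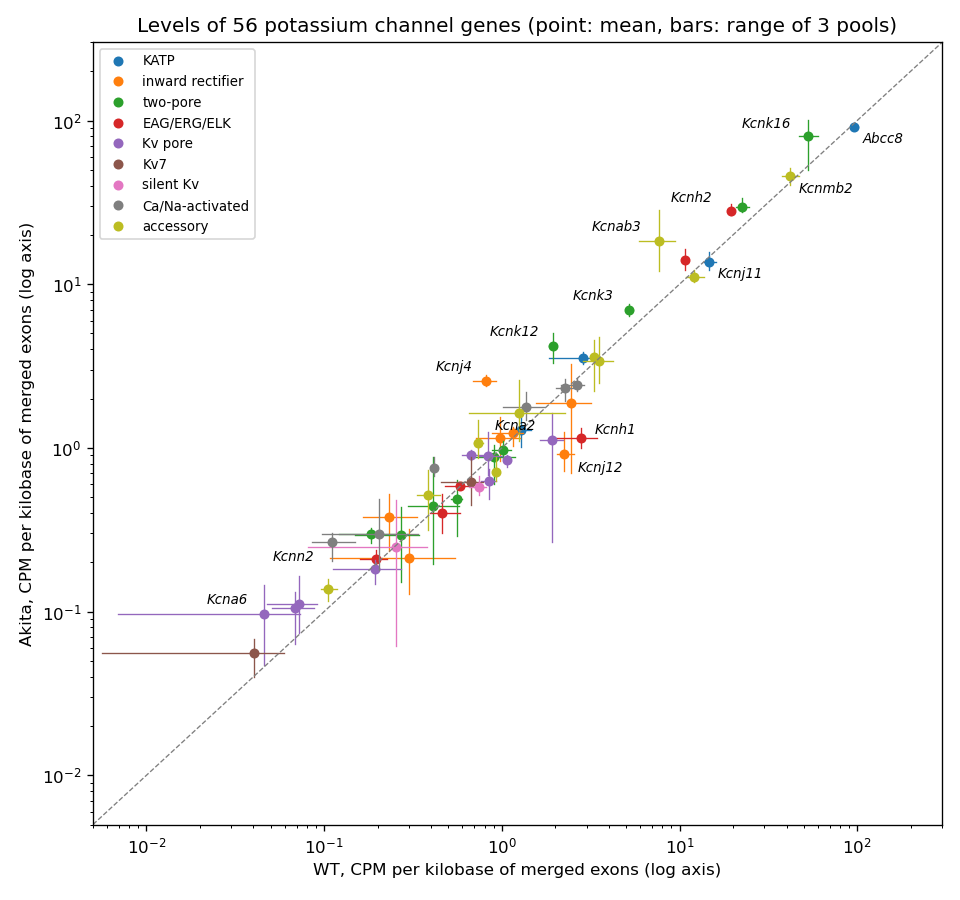
Mean level of each of 56 potassium channel genes in WT (x axis) and *Akita* (y axis) islets, in CPM per kilobase of merged exons on log axes, colored by class, with bars for the range of the 3 pools and a dashed line of equality. *Abcc8* sits on the line at 96.0 and 91.5 CPM per kilobase, *Kcnj4* above it and *Kcnj12* below it.

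Between genotypes, 3 of the 60 genes passed (limma-voom over 15407 genes, with a Benjamini–Hochberg adjusted p under 0.05): *Kcnj4* and *Kcnh2* were higher and *Kcnj12* was lower in *Akita* islets. Over all genes tested, 0.759% were called higher, 0.857% lower and 1.62% either way. All 60 channel genes passed the filter on low counts. At an unadjusted p under 0.05 there were 15 channel genes, 10 higher and 5 lower, which is 25% against a background of 18.7%. The 3 *Akita* values lay above all WT values in 11 channel genes and below them in 6, against 13.2% and 12.2% of all genes. The median log2 fold change of the 60 genes was 0.073, with 35 above 0, and that of all genes was -0.0011. Leaving out WT1, WT2, WT3, AK5 or AK6 left 0 of the 60 genes past the threshold, while without AK4 there were 4, *Kcnj4*, *Kcnh2*, *Kcnk12* and *Kcnk16*. *Kcnj4* and *Kcnh2* were thus called in 1 of these 6 sets of 5 libraries and *Kcnj12* in none. By limma-trend the same 3 genes and *Kcnk12* passed. In 20 of the 60 genes, the called ones not among them, the estimate changed sign without one library or another.

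**Figure D2:**
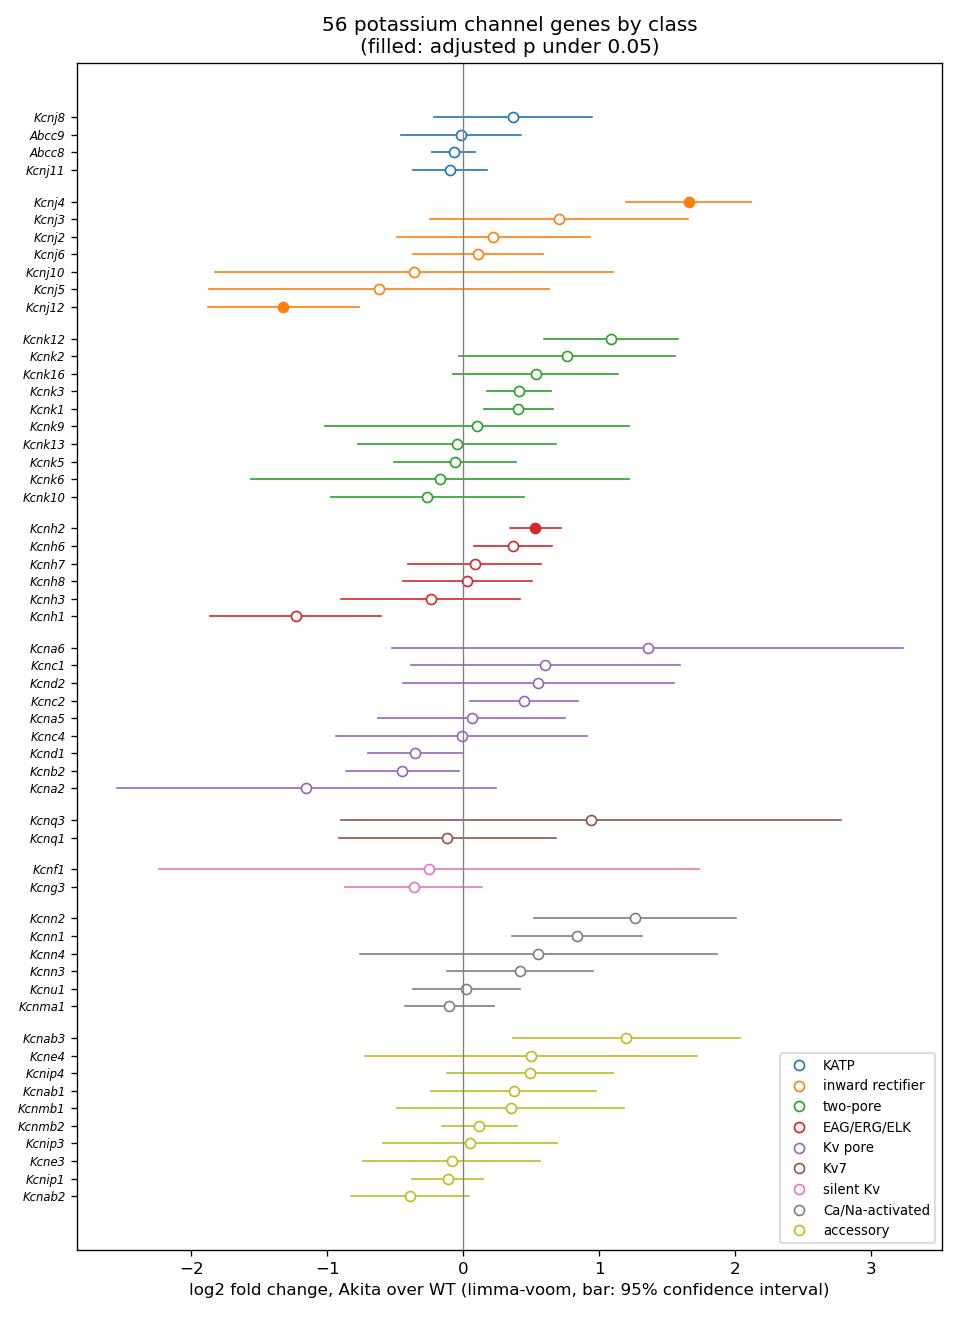
Log2 fold change of *Akita* over WT (x axis, limma-voom) for 56 of the 60 genes, grouped and colored by class, with 95% confidence intervals as bars and filled points for the 3 genes with an adjusted p under 0.05. *Kcnj4* (1.66) and *Kcnj12* (-1.32) stand at opposite ends of the inward rectifiers, and the 4 KATP genes lie between -0.094 and 0.37.

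The KATP channel of the β-cell is built from *Kcnj11*, its Kir6.2 pore, and *Abcc8*, its SUR1 regulatory subunit and the target of sulfonylureas. *Abcc8* was at 753, 760 and 816 CPM in the WT libraries and 757, 741 and 723 in the *Akita* libraries, here and below in the order of the library names. *Kcnj11* was at 50.6, 52.1 and 59.1 CPM in WT and 44.9, 57.9 and 49.0 in *Akita*. The groups overlapped for both genes. The log2 fold change of *Abcc8* was -0.069 ± 0.067 (SE, limma-voom adjusted p = 0.634), with a 95% confidence interval of -0.23 to 0.089, and that of *Kcnj11* was -0.094 ± 0.12 (adjusted p = 0.717) with an interval of -0.37 to 0.18. With library totals alone as the scale both estimates turned positive, at 0.051 and 0.026. The ratio of *Abcc8* to *Kcnj11* per kilobase, which does not depend on the scaling, was 6.56 ± 0.251 in WT and 6.73 ± 0.924 in *Akita* (SD, n = 3). The genes of the vascular KATP channel, *Kcnj8* (Kir6.1) and *Abcc9* (SUR2), were weaker. *Kcnj8* was at 8.19, 4.66 and 9.09 CPM in WT and 8.24, 9.09 and 9.87 in *Akita* (log2 fold change 0.37 ± 0.25, adjusted p = 0.477, limma-voom), and *Abcc9* was at 10.1, 10.1 and 12.1 CPM in WT and 13.2, 8.46 and 10.6 in *Akita* (-0.013 ± 0.19, adjusted p = 0.980). By limma-voom and by limma-trend 0 of the 4 KATP genes passed. At an unadjusted p under 0.05 there were 0, beside 18.7% of all genes (limma-voom). Together they held 32.8% to 34.0% of the summed level per kilobase of the 60 genes in WT and 25.4% to 31.5% in *Akita*. These shares also depend on the levels of the other classes. The KATP sum itself was 111 to 122 CPM per kilobase in WT and 108 to 112 in *Akita*, with overlapping groups.

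Among the 7 other inward rectifiers, 1 was called higher and 1 lower, beside 0.759% and 0.857% of all genes. The other 5 were not called. The called genes both encode strong inward rectifiers of the Kir2 family, which set the resting potential near the potassium equilibrium in heart, muscle and brain. *Kcnj4* (Kir2.3, chromosome 15, 79483718 to 79505241, minus strand, GRCm38) was at 1.76, 1.49 and 1.98 CPM in WT and 5.17, 6.01 and 5.33 in *Akita*. *Kcnj12* (Kir2.2, chromosome 11, 61022564 to 61071131, plus strand) was at 5.65, 6.98 and 5.90 CPM in WT and at 1.99, 2.20 and 3.42 in *Akita*. In neither gene did the groups overlap. *Kcnj4* was 3.16-fold higher (log2 fold change 1.66 ± 0.19, limma-voom adjusted p = 0.0163), and *Kcnj12* was at 0.40 of its WT level (-1.32 ± 0.23, adjusted p = 0.0489). *Kcnj2* (Kir2.1), the third Kir2 pore with enough counts, was at 6.85, 3.88 and 5.18 CPM in WT and 8.42, 5.79 and 4.50 in *Akita* (0.22 ± 0.30, adjusted p = 0.744), and its groups overlapped.

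Within each library, *Kcnj12* held 55.8% ± 7.62 of the Kir2 level per kilobase summed over *Kcnj2*, *Kcnj4* and *Kcnj12* in WT and 20.0% ± 6.43 in *Akita* (SD, n = 3). *Kcnj4* held 20.1% ± 2.72 in WT and 55.3% ± 4.34 in *Akita*, and *Kcnj2* held 24.1% ± 6.19 and 24.7% ± 7.65. The leading Kir2 transcript was thus *Kcnj12* in the 3 WT libraries and *Kcnj4* in the 3 *Akita* libraries. The ratio of *Kcnj4* to *Kcnj12* was 0.398, 0.272 and 0.429 in WT and 3.32, 3.49 and 1.99 in *Akita*. These shares restate the calls of the 2 genes in a form that no scaling factor moves, and carry no test of their own. With each library left out in turn the log2 fold change of *Kcnj4* stayed between 1.55 and 1.75 and its adjusted p between 0.0216 and 0.101, and that of *Kcnj12* between -1.55 and -1.16 with an adjusted p of 0.0593 to 0.203 (limma-voom). Without any filter on low counts *Kcnj12* did not pass (adjusted p = 0.0597).

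The G protein-gated inward rectifiers, which open on Gi-coupled receptor signals, were not called. *Kcnj5* (GIRK4), the highest per kilobase in WT among the 7 without the KATP pores, was at 14.8, 12.1 and 7.30 CPM in WT and 15.2, 3.30 and 7.76 in *Akita* (-0.62 ± 0.53, limma-voom adjusted p = 0.590), and varied within each genotype more than between them. *Kcnj6* (GIRK2) had a log2 fold change of 0.11 and *Kcnj3* (GIRK1) of 0.70, at adjusted p = 0.820 and 0.402. A share of 31.1% of the exon bases of *Kcnj3* overlaps *Gm26794* on the other strand, and the library kit does not mark strand. *Kcnj10* (Kir4.1), known from glia and kidney, was at 2.96, 1.36 and 0.580 CPM in WT and 1.73, 0.696 and 1.03 in *Akita*.

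The promoters of the 3 genes that passed are shown because the called differences rest on these genes, the Kir2 pair first. Each runs from 250 bases before to 50 bases after a start given by RefSeq on GRCm38.p6, 5′ to 3′ on the gene's strand, and capitals mark the MAF recognition letters TGCTGAC on either strand.
Kcnj4, chr15:79505192-79505491, minus strand: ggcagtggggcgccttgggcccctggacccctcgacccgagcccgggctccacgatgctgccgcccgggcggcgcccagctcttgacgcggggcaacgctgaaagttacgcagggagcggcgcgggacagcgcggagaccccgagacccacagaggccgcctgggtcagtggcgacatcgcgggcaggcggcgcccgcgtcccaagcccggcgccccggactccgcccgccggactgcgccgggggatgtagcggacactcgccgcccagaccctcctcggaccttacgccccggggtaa
Kcnj12, chr11:61065554-61065853, plus strand: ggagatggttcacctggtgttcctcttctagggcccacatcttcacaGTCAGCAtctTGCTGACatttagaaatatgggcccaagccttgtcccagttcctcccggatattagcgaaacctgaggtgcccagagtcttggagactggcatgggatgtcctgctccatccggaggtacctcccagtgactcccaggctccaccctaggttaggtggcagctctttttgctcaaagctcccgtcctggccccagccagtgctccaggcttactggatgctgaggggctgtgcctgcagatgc
Kcnh2, chr5:24329542-24329841, minus strand: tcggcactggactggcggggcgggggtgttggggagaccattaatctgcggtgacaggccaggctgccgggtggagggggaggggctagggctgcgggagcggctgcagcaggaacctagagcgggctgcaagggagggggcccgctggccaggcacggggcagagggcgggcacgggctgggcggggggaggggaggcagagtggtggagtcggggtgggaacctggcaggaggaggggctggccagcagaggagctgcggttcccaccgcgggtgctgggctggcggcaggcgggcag
The starts used for *Kcnj12* and *Kcnh2* lie inside the genes as the table places them, so that other starts of these genes were not examined, and counts per gene do not separate starts. The GC content of these windows was 76% in *Kcnj4*, 57% in *Kcnj12* and 74.3% in *Kcnh2*, beside a median of 52.7% over 32851 promoters. The window of *Kcnj12* held these letters 2 times, once on each strand. They were found at least once in 4.67% of all promoters. The 43 channel genes with a promoter in the table had 62 promoters between them. Of these promoters 3 held the letters, in *Kcnj12*, *Abcc9* and *Kcnip1*. The other motifs searched on both strands were the ER stress element (CCAAT and CCACG with any 9 bases between), in 0.119% of all promoters and none of the 43 genes, the amino acid response element TGATGNAAN, in 3.95% and in *Kcnab1*, and the cAMP response element TGACGTCA, in 1.79% and none of the 43. A match is a description of letters and was not linked to binding.

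The ERG channels *Kcnh2*, *Kcnh6* and *Kcnh7* open slowly and pass current during repolarization, in heart as in islet cells, and *Kcnh1* encodes EAG1, a related voltage-gated channel of the brain. *Kcnh2* (chromosome 5, 24319589 to 24351604, minus strand) was at 94.1, 92.1 and 96.0 CPM in WT and 128, 149 and 132 in *Akita*. The groups did not overlap, and the WT libraries lay within 4 CPM of each other. *Kcnh2* was 1.45-fold higher (log2 fold change 0.53 ± 0.079, limma-voom adjusted p = 0.0332). *Kcnh6* was at 36.9, 38.0 and 39.6 CPM in WT and 46.8, 58.4 and 43.4 in *Akita*, again with no overlap, but did not pass (0.37 ± 0.12, adjusted p = 0.176). *Kcnh1* was at 22.7, 13.8 and 25.1 CPM in WT and 9.65, 7.33 and 8.40 in *Akita*. Its groups did not overlap and its log2 fold change was -1.23 ± 0.27, at an adjusted p of 0.0745, which became 0.0180 with an acinar score as a covariate (limma-voom). *Kcnh7* (ERG3), *Kcnh8* and *Kcnh3* (ELK channels) had log2 fold changes of 0.085, 0.032 and -0.24, with adjusted p of 0.702 to 0.954. The ratio of *Kcnh2* to *Kcnh1* per kilobase was 7.39 ± 2.34 in WT and 24.9 ± 5.43 in *Akita* (SD, n = 3), and that of *Kcnh2* to *Kcnh6* was 1.81 ± 0.0526 and 2.03 ± 0.179. With each library left out, *Kcnh2* kept a log2 fold change of 0.47 to 0.58, its adjusted p running from 0.0259 without AK4 to 0.155 without WT2.

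**Figure D3:**
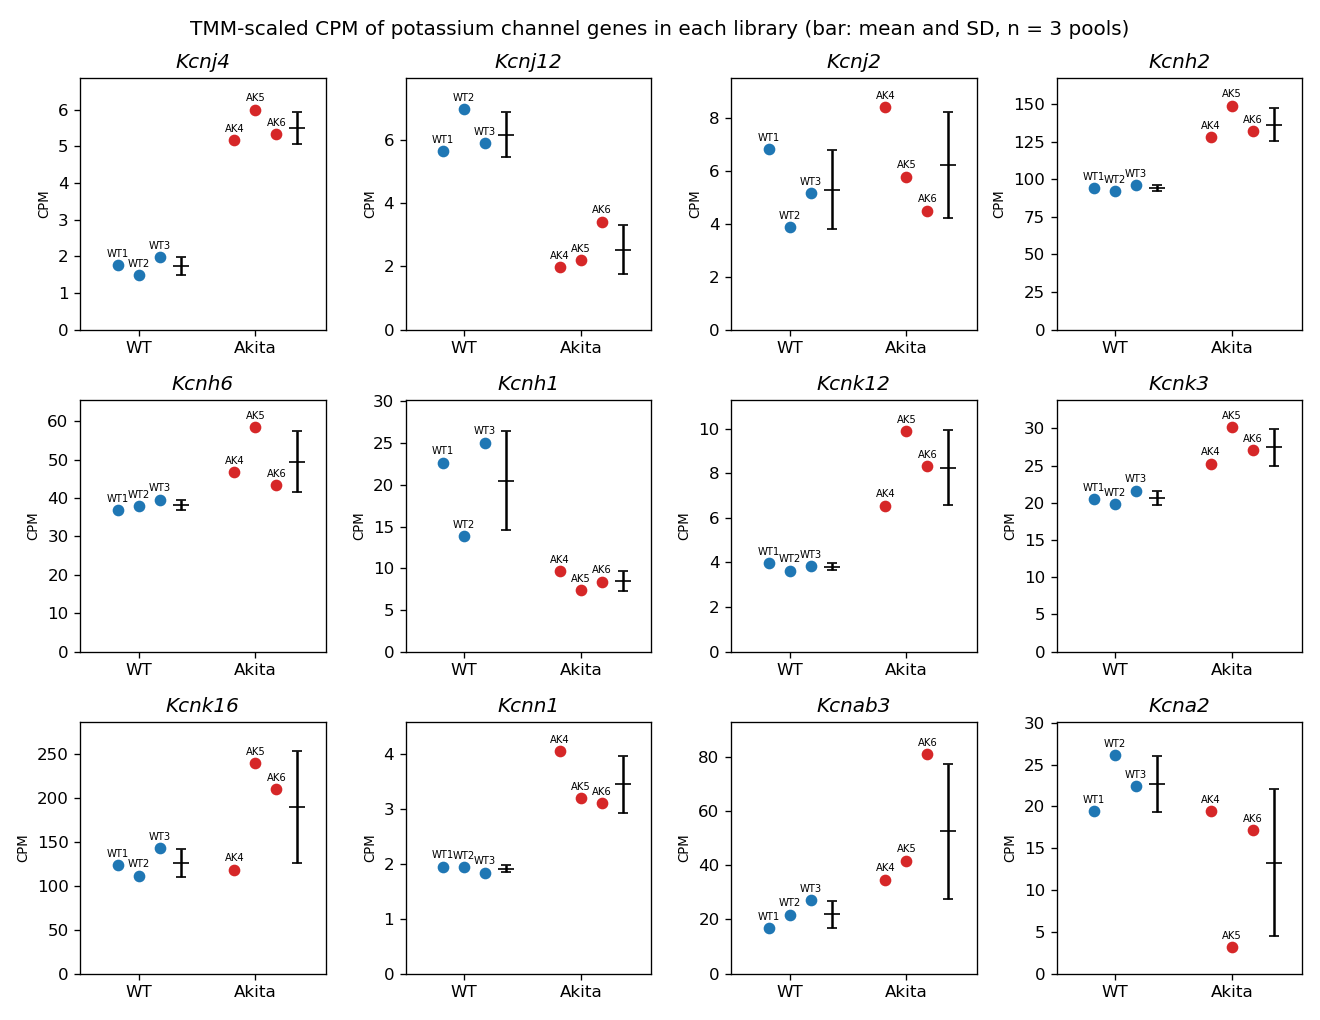
TMM-scaled CPM (y axis, from 0) of 12 potassium channel genes in each of the 6 libraries, WT in blue and *Akita* in red, with the mean and SD of the 3 pools as black bars. The genotypes overlap in *Kcnj2* and in *Kcnk16*, which has AK4 (118 CPM) among the WT values, and in none of the other genes drawn. In *Kcna2* they nearly touch, and AK5 is low (3.15 CPM).

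Two-pore-domain channels pass a background potassium current that pulls the membrane away from the firing threshold. Of the 10, 0 passed by limma-voom and 3 (*Kcnk12*, *Kcnk3* and *Kcnk1*) had an unadjusted p under 0.05, beside 18.7% of all genes. Positive estimates numbered 6 and negative ones 4. The *Akita* values lay above all WT values in 3 and below them in 0, beside 13.2% and 12.2% of all genes. *Kcnk12* (THIK-2), a channel with little current of its own in expression systems, was at 3.97, 3.63 and 3.82 CPM in WT and 6.54, 9.89 and 8.32 in *Akita* (log2 fold change 1.09 ± 0.21, limma-voom adjusted p = 0.0603). Its groups did not overlap, and it passed without AK4 (adjusted p = 0.0250) but in no other set of 5 libraries. It also passed by limma-trend, with sample quality weights and with library totals alone. Its close relative *Kcnk13* (THIK-1) had a log2 fold change of -0.047 (adjusted p = 0.956), and the ratio of *Kcnk12* to *Kcnk13* per kilobase was 2.27 ± 0.688 in WT and 4.87 ± 0.605 in *Akita* (SD, n = 3).

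*Kcnk16*, which carries the TALK-1 current of β- and δ-cells, was at 124, 112 and 143 CPM in WT and 118, 240 and 211 in *Akita*. AK4 lay within the WT range and the other *Akita* libraries above it. The log2 fold change was 0.53 ± 0.26 (limma-voom adjusted p = 0.325) with all libraries and 0.85 without AK4 (adjusted p = 0.0284), the lowest of the leave-one-out estimates being 0.33 without AK5. AK4 was also the *Akita* library with the highest acinar sum and the lowest α-cell sum. The sum of 7 δ-cell markers was 3559 to 3970 CPM in WT and 4960, 3838 and 4341 in *Akita*, thus highest in AK4. The part of any of these cells in its *Kcnk16* level was not tested. *Kcnk3* (TASK-1), an acid-sensitive leak channel, was at 20.5, 19.9 and 21.6 CPM in WT and 25.3, 30.2 and 27.1 in *Akita* (0.41 ± 0.10, adjusted p = 0.0978). *Kcnk1* (TWIK-1) was at 46.8, 55.0 and 48.3 CPM in WT and 62.8, 61.5 and 74.8 in *Akita* (0.41 ± 0.11, adjusted p = 0.114). In both genes the groups did not overlap, and both passed only where library totals alone set the scale, a choice that shifts the median of all genes by 0.12 on the log2 scale. The remaining two-pore genes, *Kcnk2*, *Kcnk5*, *Kcnk6*, *Kcnk9* and *Kcnk10*, ran from -0.26 (*Kcnk10*, TREK-2) to 0.76 (*Kcnk2*, TREK-1), with overlapping groups. As a class the two-pore genes held 24.3% to 25.8% of the summed level per kilobase of the 60 genes in WT and 26.0% to 34.1% in *Akita*. Their sum was 82.3 to 92.4 CPM per kilobase in WT and 91.4 to 144 in *Akita*, with overlapping groups.

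Voltage-gated pore subunits of the Kv1 to Kv4 families numbered 11, of which 0 passed by limma-voom or limma-trend. Of the 11, 3 (*Kcnb2*, *Kcnd1* and *Kcnc2*) had an unadjusted p under 0.05, beside 18.7% of all genes (limma-voom). *Kcnb2* (Kv2.2) was at 11.6, 12.9 and 14.1 CPM in WT and 7.41, 9.89 and 11.3 in *Akita* (log2 fold change -0.45 ± 0.18, limma-voom adjusted p = 0.240), and *Kcnd1* (Kv4.1) at 5.57, 5.57 and 5.80 against 4.05, 4.76 and 4.50 (-0.35 ± 0.15, adjusted p = 0.264). All 3 *Akita* values of *Kcnb2* and *Kcnd1* lay below the WT values. *Kcna2* (Kv1.2) was at 19.5, 26.2 and 22.4 CPM in WT and 19.4, 3.15 and 17.2 in *Akita*, where WT1 and AK4 nearly touched. Its log2 fold change of -1.15 ± 0.59 (adjusted p = 0.352) became -0.29 without AK5. *Kcnc2* (Kv3.2), known from fast-spiking neurons, was at 4.26, 4.42 and 5.71 CPM in WT and 6.94, 6.01 and 6.37 in *Akita* (0.45 ± 0.17, adjusted p = 0.225). The groups of *Kcna5*, *Kcna6*, *Kcnc1*, *Kcnc4* and *Kcnd2* overlapped, and 39.6% of the exon bases of *Kcna6* are shared with a gene on the other strand.

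Kv7 channels carry slow M-type currents in neurons and a repolarizing current in the heart. Over the 6 Kv7 and silent subunits 0 passed by limma-voom or limma-trend and 1 had an unadjusted p under 0.05, beside 18.7% of all genes. *Kcnq1* had a log2 fold change of -0.12 ± 0.34 (limma-voom adjusted p = 0.893), and *Kcnq3*, the lowest channel gene per kilobase, one of 0.94 ± 0.78, which rests on 2 reads in WT2 and was -0.089 without that library. The silent subunits, which form no channel alone and modify Kv2 pores, were *Kcng3* at 2.21, 2.72 and 2.52 CPM in WT and 1.81, 1.72 and 2.27 in *Akita* (-0.36 ± 0.21, adjusted p = 0.413) and *Kcnf1* at -0.25 ± 0.84.

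Calcium-activated channels couple calcium entry back to repolarization. The class given here was set by gene symbol as calcium- or sodium-activated, *Kcnu1* included, and what gates each channel was not examined. Of the 6 genes in this class 0 passed by limma-voom or limma-trend, and 5 had estimates above 0. At an unadjusted p under 0.05 there were 2 (*Kcnn1* and *Kcnn2*), beside 18.7% of all genes (limma-voom). *Kcnma1*, the BK pore, was at 36.4, 49.2 and 49.2 CPM in WT and 37.9, 45.2 and 41.0 in *Akita* (log2 fold change -0.10 ± 0.14, limma-voom adjusted p = 0.749). The small-conductance (SK) genes gave the larger estimates. *Kcnn1* (SK1) was at 1.95, 1.94 and 1.84 CPM in WT and 4.05, 3.19 and 3.10 in *Akita* (0.84 ± 0.20, adjusted p = 0.0975), and *Kcnn2* (SK2) at 0.636, 0.743 and 1.11 against 1.52, 2.16 and 2.27 (1.27 ± 0.31, adjusted p = 0.101). Neither pair of groups overlapped. *Kcnn3* (SK3), the strongest SK gene, was at 10.6, 14.3 and 17.9 CPM in WT and 15.4, 23.0 and 17.5 in *Akita* (0.42 ± 0.23, adjusted p = 0.375), with overlap. *Kcnn4* (the intermediate-conductance channel) and *Kcnu1* (Slo3, best known from sperm) had log2 fold changes of 0.55 ± 0.56 and 0.02 ± 0.17.

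Accessory subunits were led by *Kcnmb2*, which gives BK channels fast inactivation, at 118, 147 and 129 CPM in WT and 126, 143 and 160 in *Akita* (log2 fold change 0.12 ± 0.12, limma-voom adjusted p = 0.637). Of the 10, 0 passed by limma-voom or limma-trend and 1, *Kcnab3*, had an unadjusted p under 0.05, beside 18.7% of all genes. *Kcnab3*, a cytosolic β-subunit of Kv1 channels, was at 16.9, 21.8 and 27.0 CPM in WT and 34.7, 41.8 and 81.3 in *Akita* (1.20 ± 0.35, adjusted p = 0.139). Its groups did not overlap, AK6 stood apart from the other *Akita* libraries, and without AK6 the log2 fold change was 0.84 (adjusted p = 0.175). An overlap of 5.13% of its exon bases with the antisense gene *Kcnab3os* leaves the origin of some reads unresolved. The same limit holds for other genes described here whose exons overlap genes on the other strand. Among them are *Kcnk2* (12.2%), *Kcnn2* (8.13%), *Kcnk1* (8.01%), *Kcnip4* (7.36%), *Kcnma1* (5.98%) and *Kcnk3* (5.76%). *Kcnab2* was below its WT values in all 3 *Akita* libraries (-0.39, adjusted p = 0.312) and *Kcnip4* above them (0.49, adjusted p = 0.363). *Kcnab1*, *Kcne3*, *Kcne4*, *Kcnip1*, *Kcnip3* and *Kcnmb1* had overlapping groups and log2 fold changes between -0.11 and 0.50.

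**Figure D4:**
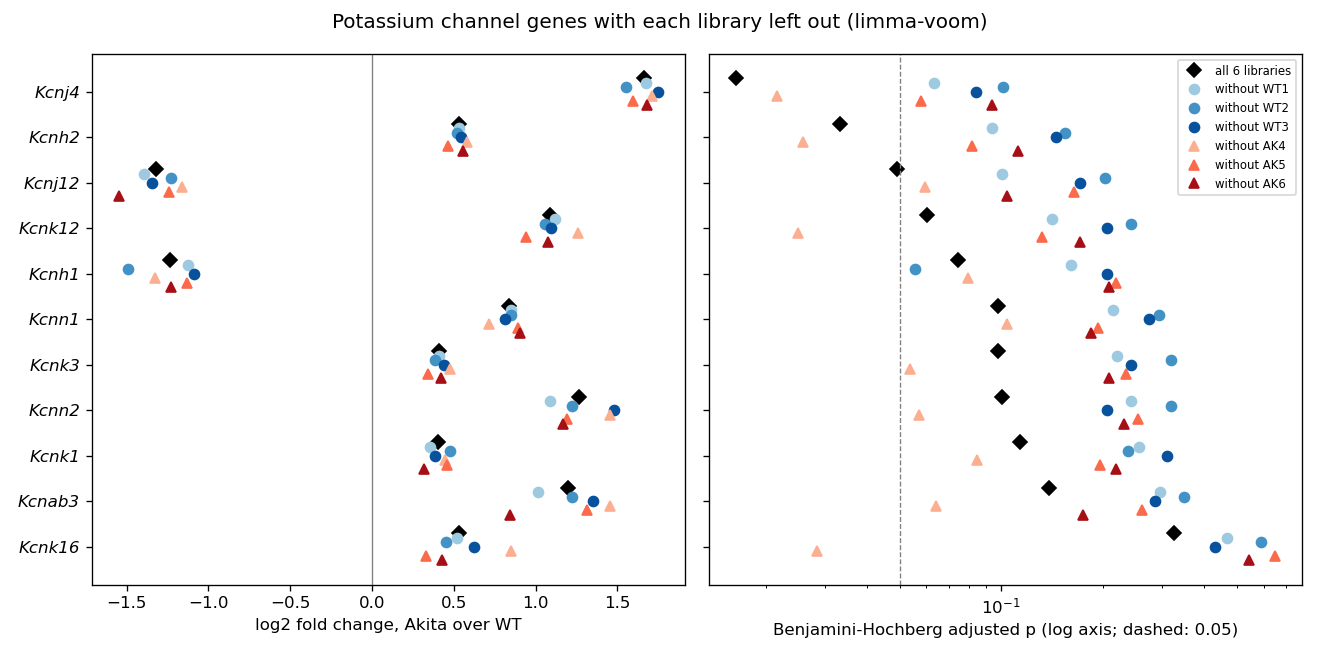
Log2 fold change (left) and adjusted p on a log axis (right) of the 10 channel genes with the lowest adjusted p and of *Kcnk16*, with all 6 libraries (black) and with each library left out (blue for WT, red for *Akita*). Every estimate keeps its sign, and for *Kcnj4* the adjusted p runs from 0.0163 with all libraries to 0.101 without WT2.

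A list of 14 partners of potassium channels outside the *Kcn* symbols gave 11 tested genes, with a median log2 fold change of 0.027. Of the 11, 1 was called higher and 1 lower, beside 0.759% and 0.857% of all genes. *Adam22*, a receptor for LGI proteins found in Kv1 complexes, was at 68.3, 59.7 and 69.0 CPM in WT and 106, 141 and 105 in *Akita* (0.83 ± 0.13, limma-voom adjusted p = 0.0394). *Cntnap2* (Caspr2), which gathers Kv1 channels along axons, was at 16.8, 13.9 and 21.3 CPM in WT and 8.02, 4.91 and 6.33 in *Akita* (-1.42 ± 0.23, adjusted p = 0.0425). Both thus separated the genotypes without overlap and in opposite directions. Both passed without AK4 and missed the threshold without any other single library, at adjusted p of up to 0.171 for *Adam22* and 0.152 for *Cntnap2*. The Kv4 partners *Dpp6* and *Dpp10* had log2 fold changes of 0.37 and 0.92 (adjusted p = 0.267 and 0.159), and *Dpp10* is also one of the α-cell markers. The BK γ-subunit *Lrrc55* was at 120, 137 and 81.1 CPM in WT and 88.8, 13.2 and 30.1 in *Akita* (-1.74 ± 0.60, adjusted p = 0.188), and the Kv2 partner *Amigo1* was at -0.032.

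A second list held 28 genes of glucose sensing, other ion channels and the sodium pump, all tested. By limma-voom 0 of them were called, beside 1.62% of all genes, while limma-trend called *Cacna2d1*. At an unadjusted p under 0.05 (limma-voom) there were 11 of the 28 (5 positive and 6 negative estimates), beside 18.7% of all genes. The median log2 fold change was 0.11. The calcium channel subunit *Cacna2d1* was at 151, 147 and 150 CPM in WT and 188, 248 and 224 in *Akita* (0.55 ± 0.11, adjusted p = 0.0595), and the sodium channel *Scn9a* at 130, 106 and 81.6 against 62.4, 49.1 and 55.6 (-0.91 ± 0.18, adjusted p = 0.0621). Neither pair of groups overlapped. The sodium pump subunits *Atp1b1* (-0.36, adjusted p = 0.0819) and *Atp1b2* (1.03, adjusted p = 0.0857) also lay apart without overlap. The L-type calcium channel *Cacna1d* had a log2 fold change of 0.11, with overlapping groups.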

How the data were processed

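RNA of whole islets was sequenced in 3 WT and 3 *Akita* pools. As the methods and the processing notes of the submitters state, the authors used 120 ng of total RNA and a TruSeq V2 kit, trimmed with cutadapt 1.12, aligned to GRCm38 with STAR 2.5.2b, counted with HTSeq 0.7.2 and tested with DESeq2 1.12.4. Neither strand setting nor annotation release was found in them. Of the deposited table, the raw counts per gene served here, while 6 columns of normalized counts and the authors' fold changes and p-values did not. In 6815 genes a mark replaced the counts, so these columns were not accepted as a plain count table and limma-voom took the place of the count model. The 40914 other genes held whole numbers. Columns AK4 to AK6 could be matched to the *Akita* genotype but not to single samples.

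Genes were kept where 3 libraries reached the CPM of 10 counts in the median library and the sum was at least 15 (15407 genes). Scaling used TMM factors of 0.989, 0.953 and 0.937 for WT1 to WT3 and 1.09, 1.03 and 1.01 for AK4 to AK6, trimming 30% of log ratios and 5% of levels. limma 3.58.1 in R 4.3.3 fitted log2 CPM (pseudocount 0.5) with no covariate, with Benjamini–Hochberg adjustment over all genes tested and a threshold of 0.05. The code of the fit was checked on simulated counts with a fixed dispersion (spread beyond sampling noise) for all genes. That setting is unlike these pools, so no call reported here rests on it. Tables were made with Python 3.11.15 and pandas 2.3.3. Libraries of 1 genotype differed beyond sampling noise (chi-square per degree of freedom 18.9 or more) and stayed separate. Levels per kilobase used merged exons of a GENCODE annotation of GRCm38, in which the exons of 20 channel genes overlap another gene. CPM are means ± SD, fold changes come with SE. Depth limits the weak genes and the spread between pools the strong ones.

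Named are the channel genes that passed or had the 10 lowest p, those with a log2 change of 1 or more and no overlap, the KATP genes, the leading gene of each class, the list genes that passed or had the 2 lowest p, and the genes at the count limit. Some counted genes are neither named nor drawn here, and their values are not reported. Others are named to account for their class and were chosen after their values were seen. The members and lists were chosen with earlier results of these data known. Alternatives were other scalings, filters, weights and thresholds, limma-trend, an acinar covariate and each library left out.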

Additional observations from a re-analysis of the deposited data

How the results depend on the processing

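With 3 pools a genotype, calls near the threshold depend on each library. With each library left out, the channel genes called higher ranged from 0 to 4 and those called lower were 0 throughout, beside 2 and 1 with all libraries, and all genes called ranged from 0 to 344 higher and 0 to 240 lower, beside 117 and 132. The genes of the 2 partner lists ranged from 0 to 4 higher and 0 to 2 lower, beside 1 and 1. Library totals alone gave 5 channel genes, 450 genes in all and 3 list genes as higher. At an adjusted p under 0.10 there were 5 channel genes higher and 2 lower, 369 and 375 genes in all, and 3 list genes each way. Sample quality weights gave 272 and 249 genes in all and 3 list genes higher, limma-trend or at least 10 counts in every library gave 2 list genes higher, no filter gave 0 channel genes lower, an acinar covariate gave 2 lower, and of the channel genes with 600 or more counts 1 was higher. Relative log expression factors, upper-quartile factors and a library size without hormone and acinar genes gave the same 3 channel genes.

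Of 26 named genes 22 kept their direction under every alternative run. Library totals alone turned *Abcc8* to 0.051, *Kcnj11* to 0.026, *Kcnma1* to 0.017 and *Abcc9* to 0.098, and *Abcc9* was at 0.065 with the acinar covariate and ranged from -0.17 to 0.15 with each library left out. The cause of these changes was not tested. No paired analysis was possible because the *Akita* columns carry numbers 4 to 6, which match no replicate number in the labels. The planned edgeR and DESeq2 fits were not run. Levels of weak genes rest on few reads.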
